A study of Mus musculus with 14 samples.

Results

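The 40 genes described here encode the machinery that carries a cell through G2 and mitosis, and they were measured in mouse acute myeloid leukaemia cells in which the MLL-AF9 oncogene was switched off or Id2 was over-expressed. They were chosen by symbol, as well-known mitosis and G2/M genes, and all 40 were found once in each of both expression tables, among 13406 genes in the doxycycline table and 14563 genes in the Id2 table. All cells came from C57/BL6 spleens of leukaemic mice that had received foetal liver cells carrying a Tet-Off MLL-AF9-dsRED retrovirus and a vector for NRASG12D with the Tet-Off activator. The first set holds 4 libraries of these cells after 4 days of doxycycline in vitro, which stops transcription of MLL-AF9, and 4 libraries of the same kind of cells left untreated. The other set holds 3 Id2-GFP libraries, from cells given a retrovirus for Id2 and GFP, and 3 control-GFP libraries, from cells given the control retrovirus, taken as GFP-positive cells by flow sorting 2 days after transduction, without doxycycline. Both oncogenes are vector-driven, and only MLL-AF9 is under doxycycline control. No group received doxycycline without a Tet-Off MLL-AF9 vector, so the drug and the loss of MLL-AF9 cannot be told apart. Doxycycline and untreated libraries share sample labels in 4 pairs, and Id2-GFP and control-GFP libraries share replicate numbers in 3 pairs. The labels of the doxycycline pairs are TRIMA2-M1B1, TRIMA2-M3B1, TRIMA2-M4B1 and TRIMA1-M4B1. Whether their shared parts mark a common origin is not stated in the labels.

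Entry into mitosis is driven by CDK1 bound to cyclin B, which CDC25 phosphatases switch on and WEE1 holds back. Aurora and Polo-like kinases, kinesins and microtubule-binding proteins then build the spindle, and the spindle assembly checkpoint delays the anaphase-promoting complex until every kinetochore is attached. Many of these genes are transcribed late in the cell cycle under B-MYB, FOXM1 and the MuvB complex. MuvB acts through the cell cycle genes homology region (CHR) near their start sites, where CCAAT boxes are also common. In leukaemia, as in other tissues, their transcripts mark dividing cells. Levels below are in CPM, read counts after the authors' library-size scaling, and changes are log2 fold changes ± SE from limma over all genes of a table, called at an adjusted p under 0.05.

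To show the promoter elements that many members share, promoter sequences of 6 of them are given. They run from 250 bases before the start site to 50 after it (RefSeq, GRCm38.p6), 5′ to 3′ on the gene's strand, with CHR (TTTGAA or TTCGAA) and CCAAT in capitals on either strand. Ccnb2, Cdk1, Cdc20 and Plk1, all with both elements, are members that fell in doxycycline, and Mybl2 had the largest fall of the 40. Cdc25b is 1 of the 2 members that rose, and the window of the other, Pttg1, holds neither element. The regions are chr9:70421505-70421804 (minus strand) for Ccnb2, chr10:69352863-69353162 (minus) for Cdk1, chr4:118437294-118437593 (minus) for Cdc20, chr7:122159185-122159484 (plus) for Plk1, chr2:131186698-131186997 (plus) for Cdc25b and chr2:163054385-163054684 (plus) for Mybl2.
Ccnb2: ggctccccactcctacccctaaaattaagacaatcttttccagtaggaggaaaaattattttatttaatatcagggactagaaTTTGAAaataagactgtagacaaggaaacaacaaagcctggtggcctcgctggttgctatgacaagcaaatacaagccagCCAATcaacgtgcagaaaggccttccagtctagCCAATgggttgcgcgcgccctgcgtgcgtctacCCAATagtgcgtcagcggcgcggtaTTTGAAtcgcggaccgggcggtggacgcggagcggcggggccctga
Cdk1: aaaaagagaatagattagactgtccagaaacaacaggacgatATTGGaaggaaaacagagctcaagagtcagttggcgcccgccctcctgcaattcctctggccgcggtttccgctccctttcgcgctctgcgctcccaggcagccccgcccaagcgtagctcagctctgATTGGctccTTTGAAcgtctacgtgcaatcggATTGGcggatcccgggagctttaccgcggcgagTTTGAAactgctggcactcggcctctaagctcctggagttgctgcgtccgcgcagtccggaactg
Cdc20: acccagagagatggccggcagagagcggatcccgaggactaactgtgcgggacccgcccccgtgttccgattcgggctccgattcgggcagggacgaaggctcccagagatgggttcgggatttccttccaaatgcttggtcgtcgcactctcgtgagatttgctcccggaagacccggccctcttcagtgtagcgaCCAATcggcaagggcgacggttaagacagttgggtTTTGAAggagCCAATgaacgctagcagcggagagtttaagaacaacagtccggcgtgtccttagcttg
Plk1: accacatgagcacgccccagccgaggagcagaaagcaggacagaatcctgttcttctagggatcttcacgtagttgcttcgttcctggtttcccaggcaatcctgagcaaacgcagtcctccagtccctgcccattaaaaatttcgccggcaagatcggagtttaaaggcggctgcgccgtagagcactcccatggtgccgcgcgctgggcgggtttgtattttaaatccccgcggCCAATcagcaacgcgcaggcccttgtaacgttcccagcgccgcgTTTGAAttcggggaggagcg
Cdc25b: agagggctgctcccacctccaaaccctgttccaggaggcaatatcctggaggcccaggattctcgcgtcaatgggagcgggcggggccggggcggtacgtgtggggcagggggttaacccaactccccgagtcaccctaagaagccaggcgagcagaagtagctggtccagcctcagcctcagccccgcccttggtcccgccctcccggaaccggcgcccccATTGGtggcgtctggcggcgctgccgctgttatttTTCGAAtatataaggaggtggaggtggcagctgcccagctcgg
Mybl2: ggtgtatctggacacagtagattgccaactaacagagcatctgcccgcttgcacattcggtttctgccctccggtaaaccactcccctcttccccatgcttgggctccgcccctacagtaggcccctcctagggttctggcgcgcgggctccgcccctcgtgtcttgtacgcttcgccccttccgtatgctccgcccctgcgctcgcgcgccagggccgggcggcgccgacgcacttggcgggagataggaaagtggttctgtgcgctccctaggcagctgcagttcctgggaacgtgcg

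The Ccnb2 promoter holds 3 CCAAT boxes, whose first bases lie at −87, −54 and −21, followed by a CHR at 5, where 1 is the start site, and a further CHR lies at −167. In Cdk1, CHR letters begin at −71 and −15, and in Cdc20 at −18. Plk1 has a CCAAT box at −14 and a CHR at 31. Cdc25b, which moved the other way, has a CCAAT box at −28 on the opposite strand and a CHR at 8. The Mybl2 window holds neither.

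Promoters were given for 33 of the 40 members, without Aurkb, Ccna2, Incenp, Tpx2, Foxm1, Kif20a and Cdc25c. A CHR was present in 25 of the 33 (75.8%), against 19.2% of 32851 mouse promoters of the same length and 16.5% of the 8988 genes of the doxycycline table that had a promoter entry. At least 1 CCAAT, read on both strands, was present in 24 members (72.7%), against 37.4% of all promoters and 43.4% of those table genes. At least 2 were in 16 members (48.5%), against 11.7% of all promoters and 17.03% of the table genes. Both elements were in 22 members (66.7%), against 7.53% of all promoters and 6.89% of the table genes. The CHR letters were not found in Birc5, Ccnb1, Cenpe, Mad2l1, Mybl2, Nuf2, Nusap1 and Pttg1. The E2F letters TTTGGCGC or TTTCCCGC were in 0 of the 33 windows, in 1.57% of all promoters and in 3.53% of the table genes. Other spellings of the CHR and of E2F sites were not searched. These counts therefore do not show that either is absent where its letters were not found. These matches describe letters in a window and not bound sites.

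Libraries of the doxycycline set held 17922644 to 25959766 reads on the tabled genes and those of the Id2 set 14051150 to 14948487, and members had from 196 to 27328 reads in a library. Mll1, whose counts can include vector transcripts, was at 114, 121, 144 and 131 CPM in doxycycline and at 6369, 1998, 4430 and 2807 CPM in untreated cells. Id2 was at 1266, 952 and 1631 CPM in Id2-GFP cells and at 25.8, 31.2 and 51.5 CPM in control-GFP cells. All 12 myeloid marker genes were among the genes analysed. In doxycycline 7 of them rose and 4 fell, with changes from −3.72 to 2.06, and with Id2-GFP none was called. Their summed level, to which abundant genes contribute most, was 6320 to 7163 CPM in doxycycline and 4045 to 4900 CPM in untreated cells, and 2821 to 3837 CPM in Id2-GFP and 3010 to 4248 CPM in control-GFP cells. None of 8 T and NK cell markers had an entry in either table, nor did any of 12 erythroid markers in the doxycycline table. Of the erythroid markers Hbb-b1 and Hba-a1 had one in the Id2 table, with sums of 0.766 to 2.29 CPM in Id2-GFP and 0.277 to 15.8 CPM in control-GFP cells.

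After 4 days of doxycycline, 37 of the 40 members fell, 2 rose and Kif23 was not called (limma, adjusted p under 0.05). Among all genes 33.8% fell and 31.3% rose. The median change of the members was −0.47, a 1.38-fold lower level, while the median over all genes was −0.03. Most falls were modest, with 9 members at least 1.5-fold lower and only Mybl2 at least 2-fold lower. Every doxycycline library was below every untreated library for 36 members, against 31.1% of all genes, and above every one for 2, against 28.9%. In bulk RNA, fewer cells in G2 and mitosis cannot be told apart from less of these transcripts per cell.

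The members together took 0.407, 0.456, 0.416 and 0.400% of the reads in doxycycline and 0.676, 0.724, 0.661 and 0.677% in untreated cells. Every doxycycline value was below every untreated one. Within pairs the median member difference was −0.44, −0.40, −0.47 and −0.51, and the same 37 members were lower in every pair. Of all genes, 38.9% were lower in all 4 pairs.

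**Figure D1:**
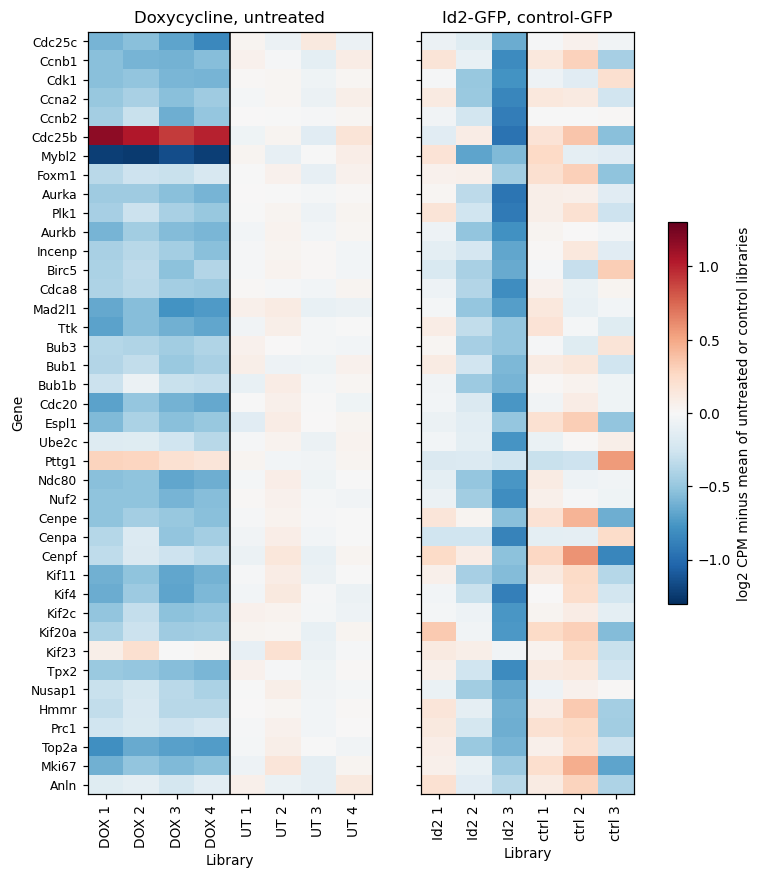
Level of each of the 40 members in each library, as log2 CPM minus the mean of the untreated libraries (left block) or of the control-GFP libraries (right block); blue is lower and red higher. All 4 doxycycline columns are blue for 37 genes and red for Cdc25b and Pttg1, whereas among Id2-GFP libraries the third holds the lowest level of its group for 39 of the 40 genes.

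**Figure D2:**
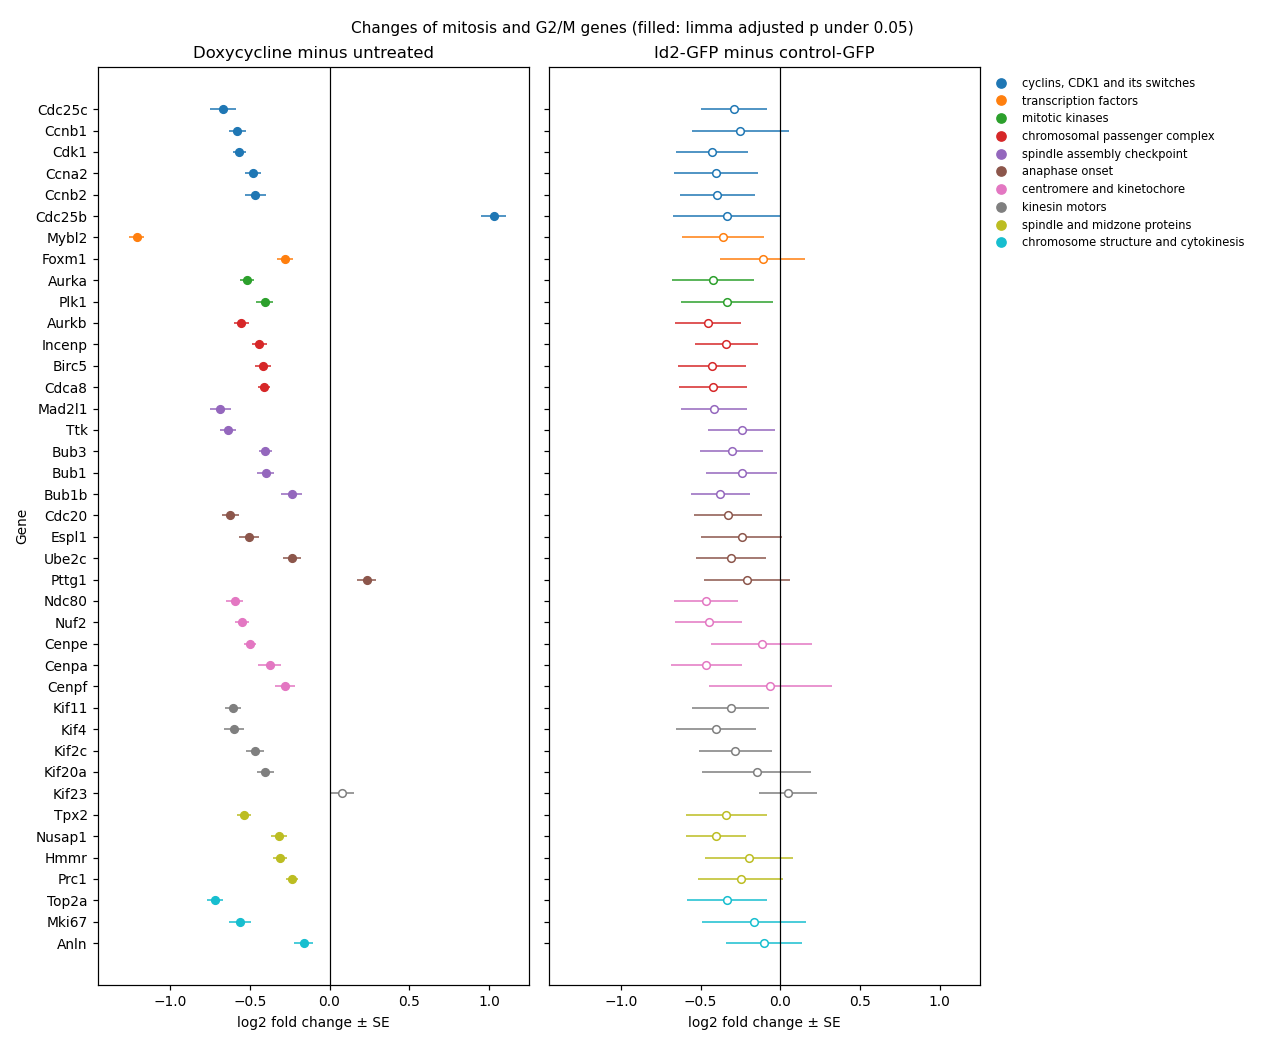
Log2 fold change of each member (points, with SE as bars), doxycycline minus untreated on the left and Id2-GFP minus control-GFP on the right, coloured by role and filled where limma's adjusted p was under 0.05. On the left 39 points are filled, and on the right none is and the bars are wider.

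Among the cyclins, CDK1 and its switches, 5 of 6 fell and Cdc25b rose. Cdk1, the kinase whose activation starts mitosis, was at 110.3, 113, 106 and 106 CPM in doxycycline and 162, 163, 155 and 163 CPM in untreated cells, a change of −0.57 ± 0.04 (limma, adjusted p = 2.3e-06). Ccnb1, the main mitotic cyclin, was at 108, 103, 103 and 107 CPM in doxycycline and 163, 155, 144 and 168 CPM in untreated cells, a change of −0.58 ± 0.05 (adjusted p = 1.2e-05). No doxycycline value of either gene reached the lowest untreated one. Ccnb2, the other B-type cyclin of dividing somatic cells, fell by 0.47 ± 0.07 on the log2 scale. Ccna2, the cyclin of S phase and G2, averaged 143 ± 5.35 CPM in doxycycline and 199 ± 9.07 CPM in untreated cells (SD, n = 4 each), a change of −0.48 ± 0.05.

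The 2 CDC25 phosphatases of the list, which remove the inhibitory phosphates from CDK1, moved in opposite directions. Cdc25b was at 138, 127, 115 and 123 CPM in doxycycline and 59.3, 63.1, 55.8 and 69.2 CPM in untreated cells, 2.04-fold higher (change 1.03 ± 0.08, limma adjusted p = 2.9e-06). Cdc25c was at 13.2, 13.8, 12.5 and 11.3 CPM in doxycycline and 20.5, 19.04, 21.9 and 18.99 CPM in untreated cells, 1.59-fold lower (change −0.67 ± 0.08, adjusted p = 7.5e-05). Neither pair of groups overlapped. The ratio of Cdc25b to Cdc25c reads was therefore 10.4, 9.22, 9.24 and 10.96 in doxycycline and 2.89, 3.31, 2.55 and 3.64 in untreated cells. Cdc25a, the remaining family member and not among the 40, was at 40.3, 37.1, 45.0 and 45.1 CPM in doxycycline and 68.1, 69.2, 66.2 and 67.6 CPM in untreated cells.

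Both transcription factors fell, by very different amounts. Mybl2, which encodes B-MYB, an activator of late cell cycle genes, was at 47.4, 46.7, 49.99 and 47.5 CPM in doxycycline and 113, 103, 110.3 and 117 CPM in untreated cells. That is 2.31-fold lower (change −1.21 ± 0.05, limma adjusted p = 2.4e-07), with no overlap. Foxm1, the forkhead factor that acts with B-MYB on G2/M promoters, averaged 88.3 ± 3.58 CPM in doxycycline and 107 ± 5.79 CPM in untreated cells (SD, n = 4 each), a change of −0.28 ± 0.05 (adjusted p = 0.001). The ratio of Mybl2 to Foxm1 was 0.565, 0.525, 0.571 and 0.513 in doxycycline and 1.06, 0.925, 1.11 and 1.05 in untreated cells.

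The mitotic kinases and the chromosomal passenger complex fell without exception. Plk1, a kinase of mitotic entry, spindle assembly and cytokinesis, was at 78.8, 87.6, 79.6 and 75.4 CPM in doxycycline and 106, 109, 102 and 109 CPM in untreated cells, a change of −0.41 ± 0.05 (limma, adjusted p = 1.1e-04). Aurka, which matures centrosomes, changed by −0.52 ± 0.04, and Tpx2, which activates it on spindle microtubules, by −0.54 ± 0.04. The passenger complex corrects faulty kinetochore attachments. Its kinase Aurkb changed by −0.55 ± 0.05, the scaffold Incenp by −0.44 ± 0.05, and survivin (Birc5) and borealin (Cdca8), which place the complex on centromeres, by −0.42 ± 0.05 and −0.41 ± 0.04. These 4 subunits therefore lie within 0.14 of each other on the log2 scale.

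All 5 spindle assembly checkpoint genes fell, over a wider range. Mad2l1, which encodes the MAD2 protein that blocks CDC20, was at 55.7, 60.2, 51.6 and 53.1 CPM in doxycycline and 92.4, 95.4, 83.0 and 84.1 CPM in untreated cells, a change of −0.69 ± 0.07 (limma, adjusted p = 1.4e-05). Ttk, the MPS1 kinase that starts the checkpoint signal, changed by −0.64 ± 0.05, and Bub3 and Bub1, partners at unattached kinetochores, by −0.40 ± 0.04 and −0.40 ± 0.05. Bub1b, which encodes BUBR1, had the smallest change of the 5, at −0.24 ± 0.06. It was at 153, 176, 152 and 149.6 CPM in doxycycline and 173, 199, 182 and 188 CPM in untreated cells, and it was the only called member whose groups overlapped.

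Of the genes for anaphase onset, 3 fell and Pttg1 rose. Cdc20, which activates the anaphase-promoting complex, was at 62.2, 71.1, 66.0 and 63.6 CPM in doxycycline and 101, 105, 101 and 97.2 CPM in untreated cells, a change of −0.62 ± 0.05 (limma, adjusted p = 5.7e-06). Espl1, the separase that cleaves cohesin, changed by −0.51 ± 0.06, and Ube2c, the ubiquitin-conjugating enzyme of the complex, by −0.24 ± 0.05. Pttg1 encodes securin, the inhibitor of separase. It was at 18.5, 18.5, 17.4 and 16.97 CPM in doxycycline and 15.6, 14.8, 14.7 and 15.6 CPM in untreated cells, a change of 0.23 ± 0.06 (adjusted p = 0.0068). Scaled by library totals alone the Pttg1 change was −0.01 (adjusted p = 0.921), whereas that of Cdc25b was 0.79.

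All 5 centromere and kinetochore genes fell. Ndc80 and Nuf2, subunits of the complex that grips microtubules, changed by −0.60 ± 0.05 and −0.55 ± 0.04, and Ndc80 averaged 37.6 ± 1.91 CPM in doxycycline and 56.8 ± 2.52 CPM in untreated cells (SD, n = 4 each). Cenpe, a kinetochore kinesin that aligns chromosomes, changed by −0.50 ± 0.04. Cenpa, the histone H3 variant of centromeres, changed by −0.38 ± 0.07, and Cenpf, a large kinetochore protein made mainly in G2, by −0.28 ± 0.06.

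Of the 5 kinesin motors 4 fell. Kif11, the kinesin that pushes spindle poles apart, was at 147, 157, 142 and 148 CPM in doxycycline and 224, 241, 215 and 224 CPM in untreated cells, a change of −0.61 ± 0.05 (limma, adjusted p = 5.3e-06). The chromokinesin Kif4 changed by −0.60 ± 0.06, the microtubule depolymerase Kif2c by −0.47 ± 0.06, and Kif20a, a midzone kinesin, by −0.40 ± 0.05. Kif23, the kinesin subunit of centralspindlin, was at 83.1, 91.3, 78.4 and 80.5 CPM in doxycycline and 73.1, 90.5, 74.7 and 78.3 CPM in untreated cells. These ranges overlap, and the change was 0.08 ± 0.08 (adjusted p = 0.391, 95% interval −0.09 to 0.25), with a value of −0.16 under library totals and −0.01 under quantile normalization.

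The spindle and midzone proteins fell too, and apart from Tpx2 their changes were small. Nusap1, which bundles spindle microtubules, changed by −0.32 ± 0.05, Hmmr, which helps build spindle poles, by −0.31 ± 0.04, and Prc1, the crosslinker of the midzone, by −0.23 ± 0.04. Prc1 averaged 114 ± 2.81 CPM in doxycycline and 134 ± 3.63 CPM in untreated cells (SD, n = 4 each), without overlap. Top2a, the topoisomerase that untangles sister chromatids, was at 464, 512, 492 and 488 CPM in doxycycline and 789.98, 847, 801 and 781 CPM in untreated cells, 1.65-fold lower (change −0.72 ± 0.05, limma adjusted p = 2.3e-06). Mki67, the Ki-67 protein that coats mitotic chromosomes, was at 693, 746, 717 and 733 CPM in doxycycline and 1015, 1184, 980.0 and 1091 CPM in untreated cells, a change of −0.56 ± 0.07. Anln, the anillin of the cleavage furrow, changed least of the genes that fell, by −0.16 ± 0.06 (adjusted p = 0.036). It was the only fall that lost its call when a library was left out, with an adjusted p of 0.0666, 0.0929 or 0.0531 without doxycycline library 1, 3 or 4 and 0.0921 or 0.0937 without untreated library 1 or 4.

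**Figure D3:**
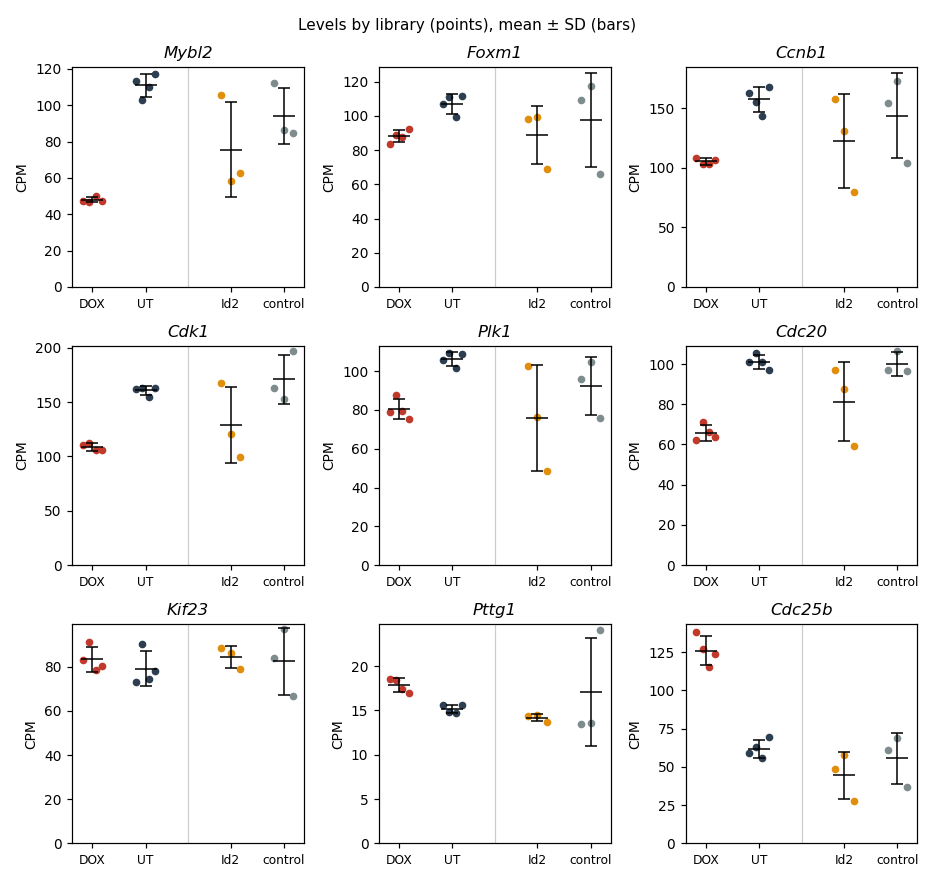
CPM of 9 members in each library (points), with the group mean and SD as horizontal bars, in doxycycline (DOX) and untreated (UT) cells on the left of each panel and Id2-GFP and control-GFP cells on the right; each axis starts at 0. Mybl2 is near 48 CPM in every doxycycline library, Cdc25b is above 115 CPM in all 4, and the Id2-GFP libraries spread widely for most genes.

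Replicates lay close together in this set. The median coefficient of variation over members was 4.84% in doxycycline and 3.97% in untreated cells, where counting alone gives 2.41% and 2.05%. The most variable members were Cenpa in doxycycline, at 10.4%, and Kif23 in untreated cells, at 9.96%. The second doxycycline library had the highest level of its group for 31 members and the second untreated library for 23, and these share a pair label. Levels per kilobase were taken over all annotated exons of a gene, so they depend on annotation and set genes against each other only roughly. They were highest in untreated cells for Mki67 (106 CPM per kb), Top2a (89.3) and Ccnb2 (87.1). They were lowest for Cdc25c, at 2.58 CPM per kb in doxycycline and 4.09 in untreated cells.

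Further mitosis genes outside the 40 moved in the same direction. Of 102 of them, 86 fell and 2 rose in doxycycline, with a median of −0.51. Of 12 condensin and sister-chromatid cohesion genes 11 fell, among them Smc4, a core condensin subunit, which averaged 226 CPM in doxycycline and 445 CPM in untreated cells (change −0.98 ± 0.05, limma adjusted p = 4.4e-07), the condensin subunit Ncapg (−0.80 ± 0.04) and sororin, Cdca5 (−0.96 ± 0.05). Of 28 kinetochore and checkpoint genes 24 fell, including the NDC80 complex subunit Spc24 (−0.92 ± 0.05), Casc5, which encodes the kinetochore scaffold KNL1 (−0.72 ± 0.04), and Mad1l1, which anchors MAD2 (−0.59 ± 0.05). Of 26 kinesin and spindle genes 24 fell, including Bora, a cofactor of Aurora A (−0.96 ± 0.05), and the augmin subunits Haus4 (−0.90 ± 0.06) and Haus6 (−0.73 ± 0.04). Of 20 kinases and other G2/M regulators 16 fell. Wee1, the kinase that opposes the CDC25 phosphatases on CDK1, averaged 20.9 CPM in doxycycline and 36.7 CPM in untreated cells (change −0.81 ± 0.05, adjusted p = 1.6e-06). Cks1b, a subunit of CDK complexes (−0.81 ± 0.06), and Trip13, an ATPase that takes apart MAD2 complexes (−0.86 ± 0.07), also fell.

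The anaphase-promoting complex itself was mixed. Of 16 subunits and regulators 11 fell and 2 rose, with a median of −0.30. The subunits Cdc23 (−0.47 ± 0.04), Anapc5 (−0.56 ± 0.05) and Cdc27 (−0.36 ± 0.04) fell, while the catalytic pair of the complex, Anapc2 (0.39 ± 0.04, limma adjusted p = 2.7e-05) and Anapc11 (0.21 ± 0.06, adjusted p = 0.0159), rose. Values of this pair under library totals are not given here. Under that scaling the rise of Pttg1, close in size to that of Anapc11, went from 0.23 to −0.01. All 33 DNA replication genes fell, with a median of −0.84, including the origin licensing genes Cdc6 (−1.21 ± 0.05) and Mcm2 (−1.19 ± 0.05) and the replisome gene Mcm10 (−1.07 ± 0.04). Of the 40 members, only Mybl2 had a change as large as these 3.

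**Figure D4:**
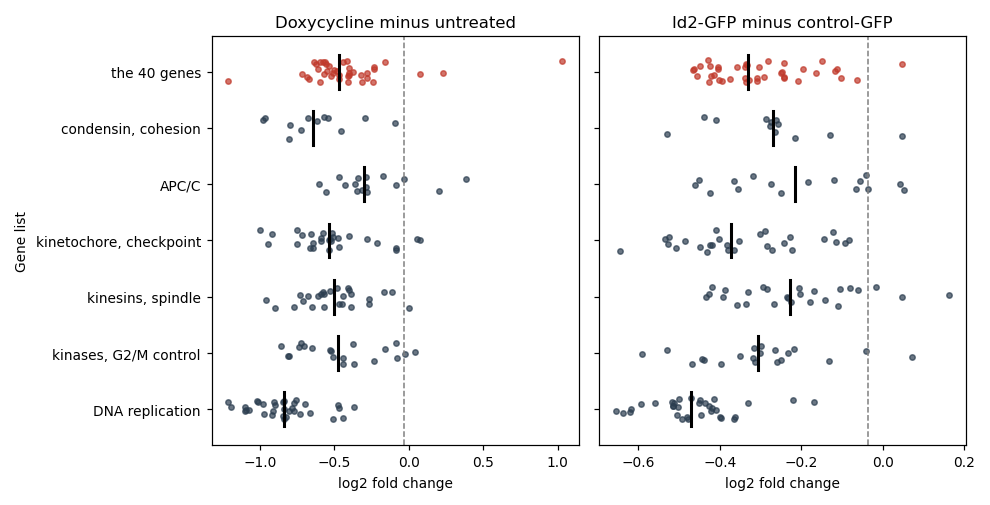
Log2 fold change of every gene (points) in the 40 members and 6 further lists, doxycycline minus untreated on the left and Id2-GFP minus control-GFP on the right, with a bar at each list's median and a dashed line at the median of all genes. In doxycycline the medians run from −0.30 for the anaphase-promoting complex to −0.84 for DNA replication, with the 40 members at −0.47.

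Markers of other cell types were scarce and some moved with the treatment. The 4 megakaryocyte markers found of 5 summed to 7.19 to 14.5 CPM in doxycycline and 23.6 to 49.2 CPM in untreated cells. Of these markers 2 fell and 1 rose, with changes from −4.48 to 0.94. The only stromal marker found of 7, Pdgfrb, was at 12.6 to 21.0 CPM in doxycycline and 44.2 to 66.0 CPM in untreated cells, and the only B cell marker found of 6, Cd79b, was at 7.12 to 21.5 CPM in doxycycline and 9.69 to 22.8 CPM in untreated cells. Their part in the results was not tested. The authors' scaling factors also differed by group, at 0.891 to 0.951 in doxycycline and 1.068 to 1.101 in untreated libraries. With library totals instead, the median of all genes was −0.27 and that of the members −0.71, and 37 members fell and 1 rose. Of all calls, 28.1% then rose, against 48.1% with the authors' scaling.

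With Id2-GFP no member passed the threshold (limma, every adjusted p = 0.998), and of all genes 0.0137% did, namely 2. The fitted change was below 0 for 39 of the 40 members, against 55.3% of all genes, the exception being Kif23 at 0.05 ± 0.18. The median was −0.33 over members and −0.03 over all genes. Only Ndc80 had an unadjusted p under 0.05, against 1.19% of all genes in that direction and 357 genes in either. Every Id2-GFP library was below every control-GFP library for 7 members (Ccnb2, Aurkb, Cenpa, Ndc80, Nuf2, Cdc25c and Nusap1), against 3.77% of all genes, and above every one for 0, against 3.18%. The fit with replicate number as a block called 35 genes in all, none of them a member. In that paired fit Ndc80, Nuf2 and Aurkb had unadjusted p-values under 0.05, as did 6.28% of all genes, and the smallest adjusted p of a member was 0.702.

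The Id2-GFP libraries differed widely among themselves. The members took 0.633, 0.503 and 0.397% of the reads in Id2-GFP cells and 0.656, 0.694 and 0.465% in control-GFP cells, so the library numbered 3 was the lowest of each group. It held the lowest Id2-GFP level for 39 of the 40 members. Within pairs the median member difference was −0.05, −0.40 and −0.58. In these pairs 28, 39 and 33 members were lower, against 47.7, 50.7 and 54.5% of all genes. In all 3 pairs 23 members were lower, as were 14.6% of all genes. Without the third Id2-GFP library the median member change was −0.13, without the first it was −0.47, and without the third control-GFP library it was −0.42, with 0 members called each time. The third Id2-GFP library also had the most Id2 of its group, at 1631 CPM. The third control-GFP library had the least Mll1, with 1234 CPM beside 2529 and 6369 CPM, and the lowest scaling factor, 0.913 beside 1.022 and 1.013. The part of these in the result was not tested.

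**Figure D5:**
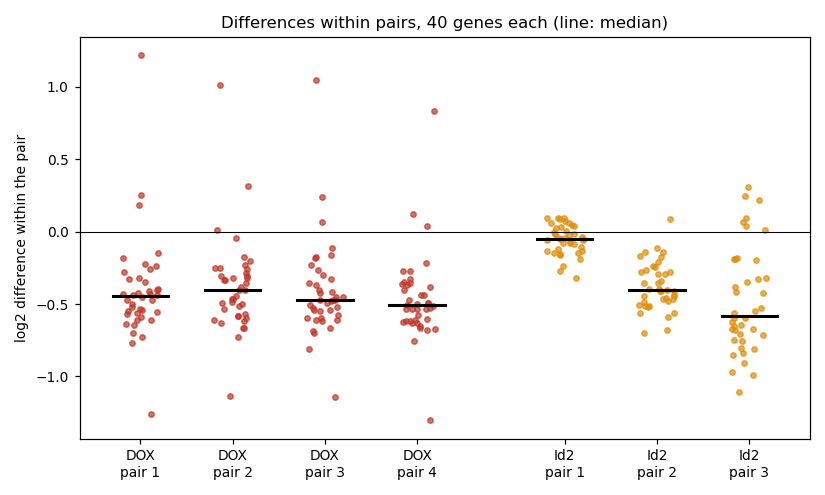
Log2 difference of each of the 40 members within each pair of libraries (points; the line is the median), doxycycline minus untreated for 4 pairs and Id2-GFP minus control-GFP for 3. The doxycycline medians lie between −0.40 and −0.51, and the Id2-GFP medians run from −0.05 in the first pair to −0.58 in the third.

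Single members show the same spread. Ndc80 was at 55.1, 42.5 and 35.7 CPM in Id2-GFP cells and 64.8, 57.8 and 58.6 CPM in control-GFP cells, a change of −0.46 ± 0.20 with an unadjusted limma p of 0.0497. Its groups did not overlap, nor did those of Aurkb, at 125, 91.9 and 75.9 CPM in Id2-GFP cells and 134, 131 and 127 CPM in control-GFP cells (change −0.46 ± 0.21). Cdk1 was at 168, 121 and 99.2 CPM in Id2-GFP cells and 163, 153 and 197 CPM in control-GFP cells, a change of −0.43 ± 0.23 with a 95% interval from −0.96 to 0.10. Its first Id2-GFP library was above 2 of the control libraries.

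Mybl2 was at 106, 58.3 and 63.0 CPM in Id2-GFP cells and 112, 86.2 and 84.6 CPM in control-GFP cells. Its change was −0.36 ± 0.26 (95% interval −0.96 to 0.24), and the first library of each group was the highest. Plk1 was at 103, 76.3 and 48.5 CPM in Id2-GFP cells and 96.2, 105 and 75.9 CPM in control-GFP cells, a change of −0.34 ± 0.29, and it had the highest coefficient of variation of the members in Id2-GFP cells, 35.8%. In control-GFP cells the most variable member was Cenpf, at 44.3%, with 136, 122 and 78.9 CPM in Id2-GFP cells and 138, 171 and 63.7 CPM in control-GFP cells. Its change was −0.06 ± 0.39, and −0.49 without the third control-GFP library.

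The genes that rose in doxycycline had values below 0 here. Cdc25b was at 48.6, 57.5 and 27.7 CPM in Id2-GFP cells and 60.7, 69.2 and 37.0 CPM in control-GFP cells, lower within each pair, with a change of −0.34 ± 0.34 (95% interval −1.12 to 0.45). Pttg1 was at 14.4, 14.5 and 13.7 CPM in Id2-GFP cells and 13.4, 13.6 and 24.1 CPM in control-GFP cells, a change of −0.21 ± 0.27 that was 0.07 without the third control-GFP library. The ratio of Cdc25b to Cdc25c was 2.18, 2.71 and 1.83 in Id2-GFP cells and 2.59, 2.82 and 1.61 in control-GFP cells.

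By role, the median fitted change with Id2-GFP ran from −0.16 for chromosome structure and cytokinesis (Top2a, Mki67 and Anln) to −0.45 for centromere and kinetochore genes. It was −0.42 for the chromosomal passenger complex, −0.38 for the mitotic kinases, −0.37 for the cyclins, CDK1 and its switches and −0.30 for the checkpoint. The 102 further mitosis genes had a median of −0.28, with 96 below 0, and the 33 replication genes one of −0.47, with all 33 below 0. None of either list was called. Marker sums were 22.3 to 41.9 CPM in Id2-GFP and 41.8 to 94.4 CPM in control-GFP cells for 3 megakaryocyte genes, 33.05 to 43.8 and 63.1 to 77.3 CPM for Pdgfrb, and 8.29 to 23.4 and 9.30 to 22.6 CPM for Cd79b. The 3 megakaryocyte genes had changes from −1.255 to 0.42, and 0 were called. The part of all these markers in the result was not tested.

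The precision of the sets differed. The median SE of a member's change was 0.235 with Id2-GFP and 0.052 in doxycycline, and the median coefficient of variation was 25.1% in Id2-GFP and 14.99% in control-GFP cells, where counting alone gives 2.77% and 2.59%. Changes of the size seen in doxycycline for most members were within the 95% intervals here: for 38 of the 40 members the interval with Id2-GFP held the value fitted in doxycycline, the exceptions being Cdc25b and Mybl2. The same intervals, which come from the fit without pairs, also held 0 for every member except Ndc80. In the paired limma fit, Nuf2 and Aurkb also had unadjusted p-values under 0.05. The comparisons share no library, and 37 members were below 0 in both. Of all genes, 52.0% were below 0 in doxycycline and 55.3% with Id2-GFP, and the share below 0 in both is not given here. Across the 40 genes, which are not independent, the changes of both comparisons had a Pearson r of 0.29 and a Spearman rho of 0.36.

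Some members share sequence with other loci (GENCODE M21, GRCm38). Exons of 6 members are overlapped over more than 10% of their length by a gene on the other strand: Kif20a by Cdc23 (29.3%), Ube2c by Tnnc2 (22.8%), Kif4 by Pdzd11 (15.1%), Cdc25c by Gm3550 (12.7%), Ccna2 by Exosc9 (12.5%) and Prc1 by Rccd1 (11.1%). Whether counting used strand is not given in the sources used here. Ccnb1, Mad2l1, Mki67 and Mybl2 have stretches of at least 200 bases with at least 95% identity elsewhere in the transcriptome. For Ccnb1 the longest is in Gm12856, over 1294 bases, and Gm12856 has its own entry in both expression tables. For Mybl2 it is in Gm3320, over 742 bases. Reads of these members can therefore be split, and their levels are uncertain to that extent. Cdc25b, on chromosome 2 from 131186949 to 131198497, has no such copy, and 2.47% of its exon length is overlapped by Spef1.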

How the data were processed

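TruSeq V2 libraries of total RNA from 14 samples were sequenced, per the labels' protocols, and the values used are the 2 deposited tables of log2 CPM per gene. Tools named in the submitters' processing notes are TopHat2, HTSeq, limma and CASAVA 1.8.2, with build mm10. The deposited log2 values are log2 CPM of reads plus 0.5 over a scaled library size, as read from the values: 100% came out as whole reads within 0.01 read. Every gene had over 1 CPM of library totals in at least 2 libraries, so low genes had been left out by the authors. Of 13419 entries in the doxycycline table, 13 repeated another in identifier and values and were dropped. Myeloid Spi1 is listed as Sfpi1. The titles of 3 of the 4 doxycycline libraries end in a letter R whose meaning is not given in the sources used here.

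Each table was tested apart with limma 3.58.1 in R 4.3.3 (trended eBayes, two-sided, Benjamini-Hochberg over all genes, adjusted p under 0.05, no covariates). On simulated data the fit recovered 76% of 100 genes changed by 0.5 (log2) and 100% of those changed by 1 between doxycycline and untreated libraries, and 50% and 99% between Id2-GFP and control-GFP libraries. The simulation gave every gene in both sets the same fixed spread, not the spread of these libraries. The median coefficient of variation of members was 4.84% in doxycycline and 25.1% in Id2-GFP cells. These shares therefore do not give the power of either comparison. The labels do not state whether the replicates within a group are separate animals. The p-values therefore measure the spread between these samples, which may be technical. Counting errors cover counting only, because no molecular identifiers were used to separate reads from molecules. Libraries sharing a pair label or replicate number deviated together from their group means (correlations 0.514, 0.552, 0.483 and 0.454 in the doxycycline set, 0.472, 0.581 and 0.557 in the Id2 set), so differences within pairs are also given. Unless a fit is called paired, SEs, intervals and p-values come from the fit without pairs. Fits with the pair as a block were an alternative.

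All 40 members are described. Of each further list, up to 3 called genes with the smallest p per direction are named, and Mll1, Mllt3 and Id2 check the labels. Mllt3 was at 5.54, 6.81, 5.87 and 5.30 CPM in doxycycline and 811, 234, 565 and 347 CPM in untreated cells. Cdc25a and the ratios were chosen after their values were seen. The members and lists were chosen with earlier results of these data known. Alternatives changed the scaling, low-value filter, offset, variance model, weights, pairing and libraries. Copies were searched with blastn 2.17.0, and figures were drawn with matplotlib 3.10.9.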

Additional observations from a re-analysis of the deposited data

Results flagged for a closer look

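Among 80 groups of 4 libraries (40 members in doxycycline and untreated cells), 5 held a library farther from the rest than Dixon's 95% limit, and chance alone flags about 1 group in 20. In the second doxycycline library Bub1b was at 175.6 CPM, with the others at 149.6 to 153 CPM, and Kif2c was at 69.3 CPM, with the others at 59.3 to 60.8 CPM. In the third untreated library Cdk1 was lowest, at 155 CPM beside 162 to 163 CPM, and Kif20a was lowest, at 95.9 CPM beside 104 to 105 CPM. In the second untreated library Cenpe was highest, at 153 CPM beside 146 to 147 CPM. Groups of 3 libraries were not tested in this way.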

How the results depend on the processing

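In doxycycline 36 or 37 members fell under each of 21 alternatives, and the member below the threshold in those with 36 was Anln (adjusted p 0.0624 with median-of-ratios scaling, 0.0592 with no variance trend, 0.142 and 0.112 without pair 1 or 4). With library totals 1 member rose, Pttg1 being at −0.008, and the median member change was −0.71. It was −0.57 with quantile normalization, where the median of all genes was −0.10. The cause was not tested.

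With Id2-GFP 0 members were called under any of 18 alternatives, and the median member change ran from −0.48 to −0.13. The number of all genes called, 2 as reported, was 35 with the replicate block, 0 to 3 with 1 library left out, and 0 without both libraries of pair 1 or of pair 2, where fewer samples were fitted. In doxycycline the paired fit changed no member's call, with 37 that fell and 2 that rose. In Id2-GFP cells the median coefficient of variation over members was 25.1%, where counting alone gives 2.77%. No other depth was run.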
